A study of Oryza sativa with 12 samples.

Results

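A set of 92 rice genes divided the 12 arrays of the study in the same way in water and after desiccation stress (DS), along a line that crossed the labelled genotypes. Side A held replicates 2 and 3 of the wild type (WT) and replicate 1 of the *OsHOX24* over-expression plants (H49), each in water and after DS. Side B held replicate 1 of WT and replicates 2 and 3 of H49 in the same treatments, so each side had 6 arrays, 3 per treatment. The genes were selected on their measured values. A gene was taken when, within each treatment, all 3 arrays of one side lay above all 3 arrays of the other, in the same direction in both treatments, and when the means of the sides differed by at least 0.8 on the log2 scale. Of 15139 genes to which this was applied, 92 were taken (0.608%), of which 34 were higher on side A and 58 were higher on side B. The order and the difference of the side values chose the genes, so these values are given as a description with no test. The sides are not groups of the sample labels, and the labels give no item that separates them.

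The arrays came from whole seedlings of *Oryza sativa* cultivar Pusa Basmati 1, 3 weeks old, grown in hydroponic Yoshida medium. The 4 groups had 3 arrays each: WT kept in water for 3 h (WT_CT), WT dried between tissue paper for 3 h (WT_DS), and *OsHOX24*-overexpression seedlings handled in both ways (H49_CT and H49_DS). H49 is 1 transgenic line of the same cultivar, carrying the coding region of the gene under a ubiquitin promoter, and its name comes from the methods, since the labels give only the over-expressed gene. The labels call the treatment drought, and the methods describe the 3 replicates of a group as independent biological replicates.

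*OsHOX24* encodes a homeodomain-leucine zipper transcription factor of a family whose genes respond to water deficit. Replicates of a group are read as alike in a design of this kind, and a gene that is high in some replicates and low in others, whatever the treatment, adds to the spread within its group. Of the 92 genes, 74 are annotated as protein-coding and 18 as long non-coding RNAs, pseudogenes or other RNAs. Long non-coding RNAs are transcripts without an evident protein product, and pseudogenes are degraded copies of genes. All 92 carry a placeholder symbol (LOC and a number), and 2 of them also carry a recognised name, so a role can be given for few of them.

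Each value was a probe set's signal on the log2 scale after RMA normalization, and 1 probe set stood for a gene. The median over all probe sets lay between 4.33 and 4.46 on the side A arrays and between 4.32 and 4.44 on the side B arrays, and arrays of 1 group correlated at 0.949 to 0.969 across genes. *OsHOX24* itself measured 5.61, 4.11 and 2.83 in replicates 1 to 3 of WT_CT and 4.56, 3.57 and 3.23 in those of H49_CT, and 9.38, 10.29 and 10.06 in WT_DS against 10.17, 9.44 and 9.96 in H49_DS. Its level therefore overlapped between WT and H49 in both treatments, and it does not check the genotype labels. The paper reports Southern blotting of its lines and, by real-time PCR, a higher *OsHOX24* level in H49 than in WT. Whether the probe set used here reads the transcript of the transgene was not analysed. For *OsHOX24* the sides overlapped in water, while after DS the 3 side A arrays lay above the 3 side B arrays, so it did not meet the rule. WT and H49 below are the names of the labels.

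Lists of marker genes were read beside the division. None of their 26 measured genes was among the 92. The mean level of 2 photosynthesis genes of the shoot ranged in water from 7.58 to 8.24 on side A and from 7.69 to 8.55 on side B, and that of 7 root genes from 4.20 to 5.12 and from 3.95 to 4.21. Among the root genes, *NAS1* and *NAS2*, which make the metal chelator nicotianamine, differed between the side means by 1.08 and 0.95 without separating the sides in both treatments. These were the largest differences of the list. *YSL15* differed by 0.62 and *NAAT1* by 0.07, while *NAR2.1* (-0.32), *LSI2* (-0.08) and *PT2* (-0.0018) went the other way. The median of the 7 was 0.07. The mean of 4 heat and chaperone genes in water was 4.40 to 4.54 on side A and 4.77 to 5.11 on side B, with no overlap, while after DS it was 5.50 to 5.87 and 5.15 to 5.77. Over both treatments *HSFA2C*, *HSP82* and *HSFA2A* differed by -0.70, -0.21 and -0.17, and *HSP17.4* went the other way (0.50). None of the 4 separated the sides in both treatments. The means of 5 clock genes in water overlapped, at 8.81 to 9.61 on side A and 8.61 to 9.48 on side B, as did those of 8 dehydration and ABA genes, at 3.84 to 4.10 and 3.86 to 4.50. The part of the heat or root genes in the division was not tested, and in whole seedlings fewer cells of a type and less RNA per cell cannot be told apart.

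The difference between the side means was wide for many of the 92 genes. Its median size was 1.31 on the log2 scale, where the median over all genes was 0.12, and it was at least 1 for 72 genes, at least 2 for 25 and at least 3 for LOC4335497, LOC4340119, LOC4344909 and LOC9270731. Genes higher on side A had a median difference of 1.09, and genes higher on side B of -1.46. In 62 genes the 6 arrays of a side lay above or below all 6 arrays of the other side when the treatments were pooled. Just inside the minimum of 0.8 lay LOC4335402 at 0.81, LOC4324697 at -0.84 and LOC4335390 at 0.85, and just outside it lay LOC4345217 and LOC4345387 at 0.79 and LOC4325349 at -0.78.

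**Figure D1:**
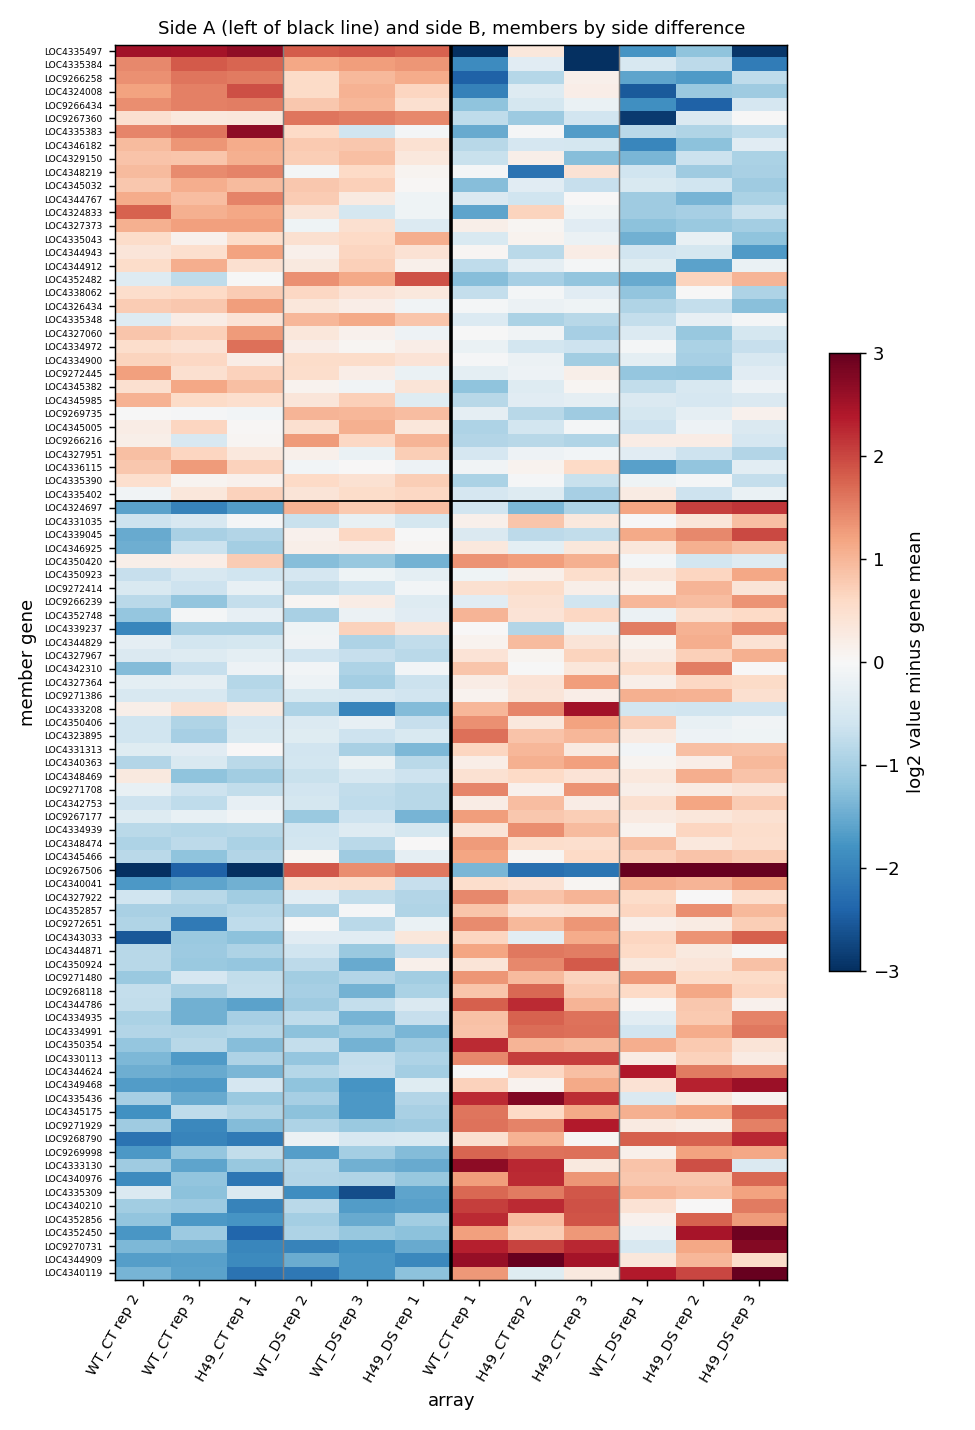
Log2 value of each of the 92 genes (rows, ordered by the difference between the side means) in each of the 12 arrays (columns) after subtraction of the gene's mean over the arrays, with the colour scale ending at 3 in both directions. The 34 genes above the horizontal line are redder in the side A arrays (left) than in the side B arrays of the same treatment, the 58 below it are bluer there, and a few rows such as LOC9267506 also change colour between water and DS.

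The gene with the widest division among those higher on side A was LOC4335497, a protein-coding gene on chromosome 4, with a side difference of 4.37. In water it measured 8.15, 8.13 and 8.29 in the side A arrays, listed throughout as WT replicates 2 and 3 and H49 replicate 1, and 1.65, 5.98 and 2.08 in the side B arrays, listed as WT replicate 1 and H49 replicates 2 and 3. Below, values of side A stand first where sides are set against each other. After DS the values were 7.46, 7.49 and 7.40 on side A and 3.87, 4.42 and 2.71 on side B. The side A arrays agreed within 0.16 in water, where the side B arrays covered a range of 4.33. LOC4335384, an RNA gene on the same chromosome, measured 7.26, 7.65 and 7.55 on side A and 3.91, 5.47 and 2.65 on side B in water, and 6.96, 7.05 and 7.14 against 5.32, 5.01 and 3.72 after DS. LOC4335383, its protein-coding neighbour, showed 4.39, 4.55 and 5.61 against 1.42, 2.90 and 1.25 in water. After DS the sides of LOC4335383 were close, at 3.54, 2.33 and 2.86 against 2.14, 2.03 and 2.17, and its side difference of 2.99 in water was 0.80 there.

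A pair of genes on other chromosomes had a like spread among the side B arrays. LOC9266258, an RNA gene on chromosome 11, measured 6.43, 6.66 and 6.60 on side A and 2.62, 4.19 and 5.22 on side B in water, then 5.62, 6.02 and 6.16 against 3.48, 3.36 and 4.30 after DS. In LOC4324008, a protein-coding gene near the end of chromosome 1, the levels were 6.87, 7.17 and 7.60 against 3.64, 5.29 and 5.87 in water and 6.25, 6.72 and 6.31 against 3.14, 4.56 and 4.61 after DS. In both genes WT replicate 1 was the lowest array in water. The long non-coding RNA LOC9266434 of chromosome 8 measured 9.37, 9.49 and 9.51 on side A and 6.76, 7.44 and 7.78 on side B in water, and 8.79, 8.97 and 8.46 against 6.13, 5.55 and 7.48 after DS. LOC9267360 on chromosome 1 measured 7.37, 7.22 and 7.24 against 6.15, 5.82 and 6.32 in water and 8.50, 8.45 and 8.35 against 4.02, 6.47 and 6.89 after DS. Here the division was wider after DS (2.64) than in water (1.18), with higher values on side A and 1 low array, WT_DS replicate 1, on side B.

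The remaining genes of the 10 with the largest differences in this direction were divided by 1.49 to 1.80. LOC4346182 on chromosome 8 measured 6.57, 6.93 and 6.71 on side A and 4.79, 5.10 and 5.08 on side B in water, and 6.39, 6.42 and 6.06 against 3.65, 4.37 and 5.27 after DS. LOC4329150 on chromosome 2 had 6.36, 6.34 and 6.59 against 4.85, 5.68 and 4.24 in water, and 6.25, 6.40 and 5.83 against 4.13, 4.88 and 4.56 after DS. Both had like side differences in the treatments, 1.75 and 1.86 for LOC4346182 and 1.51 and 1.64 for LOC4329150. The long non-coding RNA LOC4348219 on chromosome 10 measured 7.11, 7.57 and 7.65 against 6.10, 3.95 and 6.59 in water and 6.11, 6.75 and 6.24 against 5.55, 5.09 and 5.18 after DS, and 1 side B array, H49_CT replicate 2, lay far below the others.

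**Figure D2:**
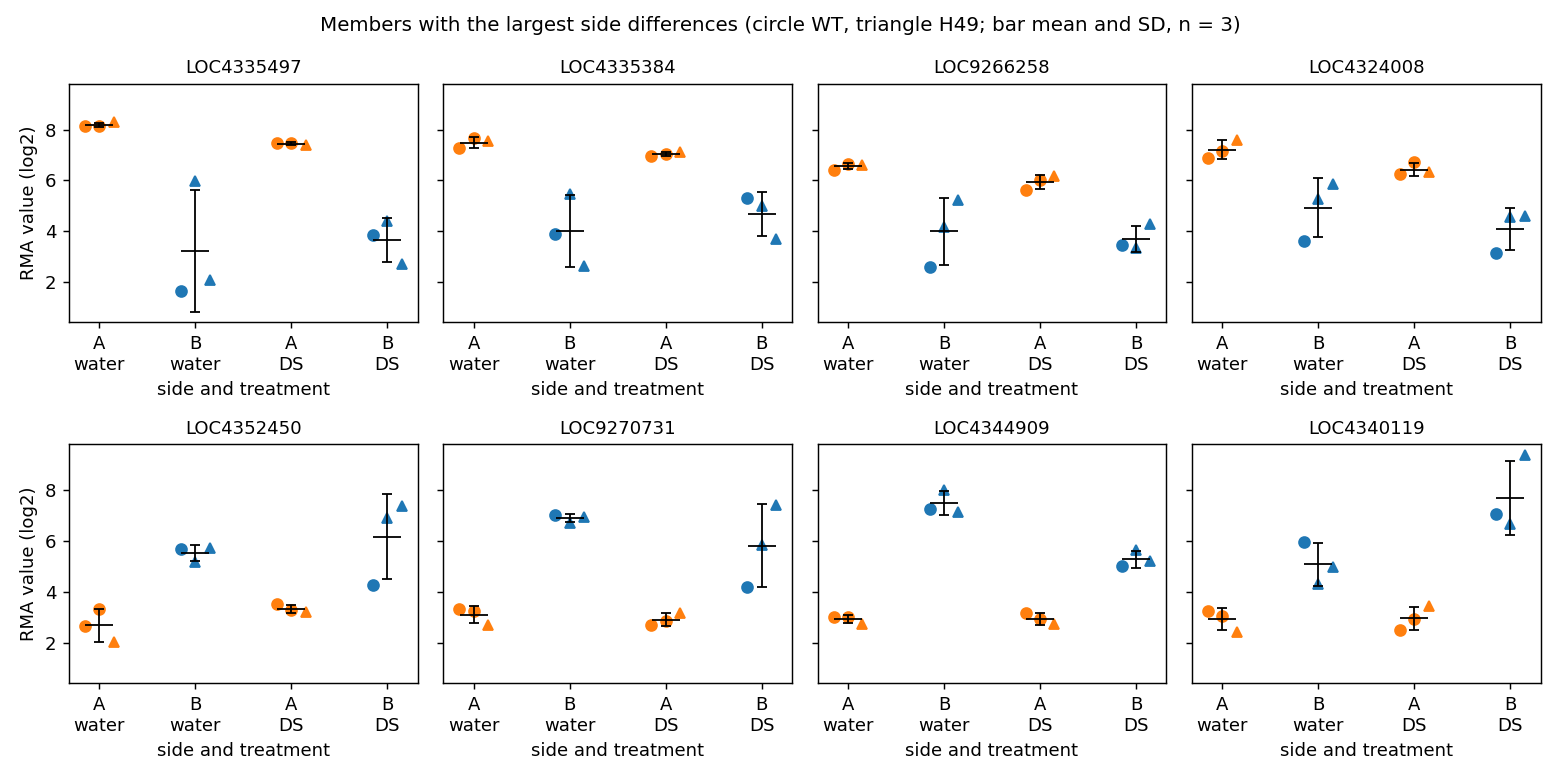
RMA value (log2) of the 4 genes with the largest side differences in each direction, by side and treatment, with circles for WT, triangles for H49, and bars for the mean and SD of 3 arrays. In all 8 panels the 3 side A arrays of a treatment lie apart from the 3 side B arrays, and in LOC4335497 the side B arrays in water spread from 1.65 to 5.98.

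Among genes higher on side B the widest divisions were -3.44 for LOC4344909 and LOC4340119 and -3.35 for LOC9270731. LOC4344909, a protein-coding gene on chromosome 8, measured 3.03, 3.04 and 2.76 on side A and 7.28, 8.02 and 7.16 on side B in water, and 3.18, 2.93 and 2.73 against 5.01, 5.65 and 5.21 after DS. Side A stayed within 2.73 and 3.18 in both treatments while side B was lower after DS, and the side difference of -4.55 in water was -2.34 after DS. LOC4340119 on chromosome 6 had its wider division after DS, with 3.28, 3.08 and 2.45 against 5.97, 4.32 and 4.98 in water and 2.52, 2.93 and 3.45 against 7.05, 6.68 and 9.38 after DS. Its side difference was -2.15 in water and -4.73 after DS. The pseudogene LOC9270731, also on chromosome 6, measured 3.35, 3.28 and 2.72 on side A and 7.02, 6.73 and 6.95 on side B in water. After DS it measured 2.70, 2.88 and 3.18 on side A and 4.20, 5.85 and 7.43 on side B, where WT_DS replicate 1 came nearest to side A.

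A further 7 genes of this direction had side differences between -2.53 and -2.84. On chromosome 12, LOC4352450 measured 2.69, 3.35 and 2.05 against 5.68, 5.18 and 5.74 in water and 3.52, 3.31 and 3.21 against 4.27, 6.91 and 7.37 after DS. LOC4352856 of the same chromosome measured 2.01, 1.48 and 1.44 against 5.44, 4.13 and 5.09 in water and 2.18, 1.68 and 2.15 against 3.34, 4.96 and 4.48 after DS. WT replicate 1 was again the lowest side B array after DS in both. On chromosome 6, LOC4340210 showed 2.89, 2.84 and 1.91 against 6.0, 6.17 and 5.84 in water, then 3.12, 2.26 and 2.30 against 4.37, 3.93 and 5.48 after DS. LOC4340976 showed 2.53, 3.23 and 2.26 against 5.67, 6.66 and 5.74 in water, then 3.54, 3.52 and 3.27 against 5.23, 5.22 and 6.13 after DS. All side A values of these 2 genes were at or below 3.54.

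LOC4335309 on chromosome 4 measured 5.40, 4.59 and 5.39 on side A and 7.56, 7.40 and 7.69 on side B in water and 3.98, 3.18 and 4.24 against 6.82, 6.73 and 7.03 after DS. LOC4333130 on chromosome 3 measured 3.40, 2.90 and 3.34 on side A and 7.15, 6.75 and 4.77 on side B in water, with 3.62, 3.03 and 2.97 against 5.34, 6.42 and 4.04 after DS. In that gene H49 replicate 3 was the lowest side B array in both treatments. LOC9269998 on chromosome 1 measured 3.08, 3.64 and 4.06 against 6.54, 6.43 and 6.46 in water and 3.14, 3.77 and 3.51 against 4.95, 6.01 and 5.96 after DS, and its side B arrays in water agreed within 0.11.

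Of the 2 genes with a recognised name, LOC4342753 is *NAC067*, which encodes a transcription factor of the plant-specific NAC family. Its level in water was 4.19, 4.05 and 4.56 on side A and 5.04, 5.73 and 5.04 on side B, and after DS it was 4.29, 4.05 and 3.98 against 5.29, 6.0 and 5.59. All 6 side B arrays lay above all 6 side A arrays, with a side difference of -1.26. LOC4340041 is *CNIH1*, a cornichon protein of the kind that carries membrane proteins out of the endoplasmic reticulum. It measured 4.96, 5.09 and 5.23 on side A and 7.20, 7.11 and 6.73 on side B in water, and 7.19, 7.21 and 6.0 against 7.76, 7.70 and 7.93 after DS. The other 2 probe sets of *CNIH1* gave side differences of 0.19 and -0.08, so its division was seen with 1 of its 3 probe sets.

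The same question could be put to 10 of the 92 genes, which had 13 probe sets beside the one that stood for the gene. Only 2 of the 13 separated the sides in both treatments in the same direction, at -1.04 for LOC4331035 and 0.93 for LOC9266216. A further 5, of LOC4331035, LOC4331313, LOC4342310 (2 probe sets) and LOC4350420, had the same direction with differences of -0.81, -1.91, -0.75, -0.74 and -0.77 and overlapping arrays in at least 1 treatment. The other probe set of LOC4335384 differed by 0.38 where the first differed by 2.92, that of LOC9270731 by -0.40 where the first differed by -3.35, that of LOC4329150 by 0.16 and that of LOC9272445 by -0.04. How the probe sets of a gene lie on its transcripts was not analysed here.

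The size of the division varied with treatment. The median size of the side difference was 1.51 in water and 1.21 after DS, and it was larger in water for 49 of the 92 genes. In 50 genes the 2 values differed by at least 0.5. The gap between the nearest arrays of the sides had a median of 0.81 in water and 0.56 after DS. The arrays of side A were the tighter ones: the median SD of the 92 genes was 0.28 in water and 0.29 after DS on side A, against 0.43 and 0.40 on side B, where over all genes it was 0.23 and 0.23 on side A and 0.22 and 0.28 on side B. Side A had the smaller SD in 63 genes in water and in 66 after DS.

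**Figure D3:**
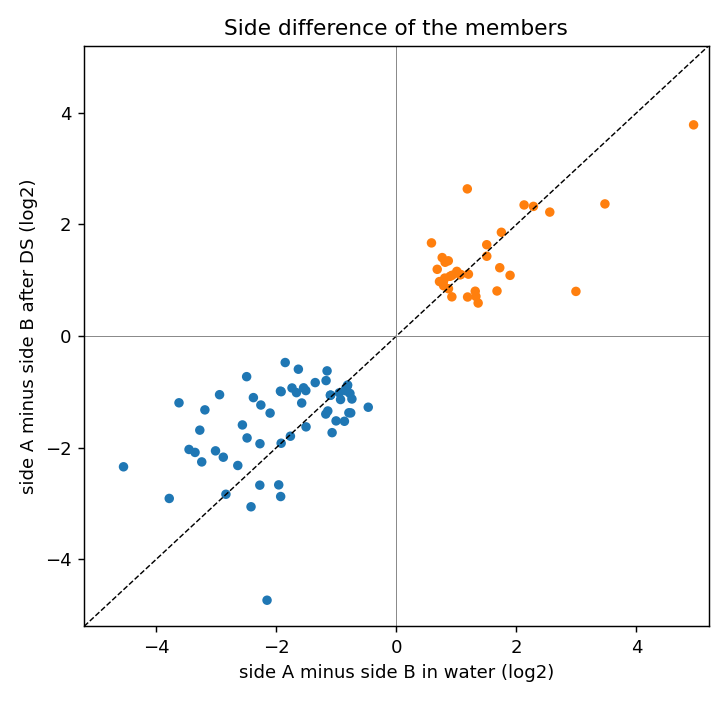
Difference between the side means (side A minus side B, log2) of the 92 genes in water (x axis) and after DS (y axis), with the 34 genes higher on side A in orange, the 58 higher on side B in blue and the dashed line where the differences are equal. The rule placed each gene in one of these 2 quadrants, and LOC4335497 at 4.95 and 3.79 and LOC4340119 at -2.15 and -4.73 lie at the ends.

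On each array the genes were summed up by direction. The mean level of the 34 genes higher on side A was 6.01 to 6.50 in the side A arrays and 4.59 to 5.15 in the side B arrays, and that of the 58 genes higher on side B was 3.63 to 4.02 and 5.21 to 5.70. Within side B after DS, WT replicate 1 was the array nearest to side A in 45 of the 92 genes, where H49 replicate 2 was nearest in 24 and H49 replicate 3 in 23. The 45 were 35 of the 58 genes higher on side B and 10 of the 34 higher on side A. Its mean level was the lowest of the side B arrays after DS in both sets, at 5.21 and 4.59, so in the 34 genes it lay farthest from side A by mean level. In water the nearest side B array was WT replicate 1 in 23 genes, H49 replicate 2 in 38 and H49 replicate 3 in 31. The arrays of side A shared this place more evenly, with 28 to 35 genes each.

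Read by the labelled genotypes, the H49 minus WT difference of the 92 genes over both treatments ranged from -1.10 to 1.75. In 87 of them its sign was opposite to that of side A minus side B, which the rule sets in part, since 2 of 3 arrays of each genotype lie on its side. The exceptions were LOC4324008, LOC4335043, LOC4345382, LOC4350406 and LOC4352482. Applied to the labelled genotypes in place of the sides, the same rule took 2 genes of 15139 (0.0132%), LOC4346270 and LOC9269686. They differed by -0.95 and 0.94 (WT minus H49). Of the 15139 genes, 79 had genotypes without overlap in both treatments, where 233 (1.54%) had sides without overlap. The sides were chosen with these data known and the genotypes were not, so the counts do not rank one division above the other. *BADH2*, which was left out of the rule, encodes betaine aldehyde dehydrogenase, the enzyme whose loss gives fragrant rice its aroma. It measured 6.10, 6.37 and 6.51 on side A and 8.17, 7.55 and 8.20 on side B in water, and 5.69, 5.78 and 5.76 against 7.79, 7.62 and 7.50 after DS, a side difference of -1.77 with no overlap. The sides were chosen with earlier results of these data known, so *BADH2* is a description here and no separate check of the sides.

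The genes were placed on the chromosomes through the reference gene table of assembly ASM3414082v1 (Oryza sativa Japonica Group), by gene ID. The array files carry no coordinates, and the positions are those of this assembly, not of the cultivar studied. All 12 chromosomes held at least 1 of the 92 genes, but not in proportion to the genes tested. Chromosome 8 held 19 of 1031 (1.84%) and chromosome 4 held 15 of 993 (1.51%), which together made up 37.0% of the 92 genes and 13.4% of the genes tested. Chromosomes 11 and 10 followed with 7 of 733 (0.955%) and 6 of 636 (0.943%), and chromosome 12 with 5 of 740 (0.676%). The lowest shares were 1 of 988 on chromosome 9 (0.101%, LOC4346925) and 3 of 1688 on chromosome 2 (0.178%). These are counts with no test, since neighbouring genes are not independent.

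**Figure D4:**
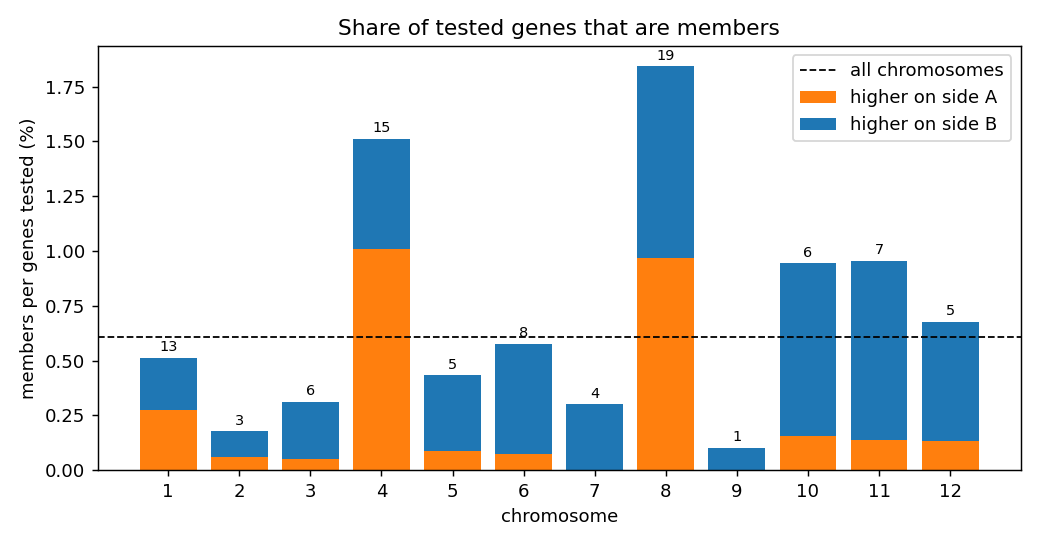
Share of the tested genes of each chromosome that met the rule (%), split into genes higher on side A (orange) and on side B (blue), with the number of genes above each bar and a dashed line at the share over all chromosomes, 0.608%. Chromosomes 8 and 4 stand highest with 19 and 15 genes.

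The direction also varied between chromosomes. On chromosome 4, 10 genes were higher on side A and 5 on side B, on chromosome 8 the numbers were 10 and 9, and on chromosome 1 they were 7 and 6. On chromosome 6 only LOC9266216 was higher on side A and 7 genes were higher on side B, and all 4 genes of chromosome 7 (LOC4342310, LOC4343033, LOC9271708 and *NAC067*) were higher on side B. Positions within a chromosome were uneven as well. All 13 genes of chromosome 1 lay between 21.98 and 43.33 Mb, where tested genes began at 0.0073 Mb, and all 5 of chromosome 12 lay between 22.65 and 27.68 Mb. When the chromosomes were divided into 82 windows of 5 Mb, 39 windows held at least 1 of the genes. The 5 windows with at least 5 of the genes held 32 of them (34.8%) and 6.03% of the genes tested. These windows were picked by this count, so a high share of the genes in them follows from the choice. They were 5 to 10 Mb of chromosome 8 with 8 of 154 tested genes, 0 to 5 Mb of chromosome 6 with 7 of 342, 0 to 5 Mb and 10 to 15 Mb of chromosome 4 with 6 of 96 and 6 of 62, and 0 to 5 Mb of chromosome 8 with 5 of 259.

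Where successive genes lay within 500 kb of each other they were joined into runs, and 5 runs of 3 or more genes held 19 of the 92. The run with the highest share lay on chromosome 4 between 12.59 and 13.07 Mb, where 4 of 8 tested genes met the rule, all higher on side A. It consisted of LOC4335383 and LOC4335384, given above, with LOC4335390 and LOC4335402. LOC4335390 measured 5.35, 4.91 and 4.97 on side A and 3.89, 4.81 and 4.16 on side B in water, and 5.43, 5.30 and 5.58 against 4.71, 4.77 and 4.13 after DS. For LOC4335402 these values were 5.43, 5.88 and 6.23 against 5.04, 5.17 and 4.56 in water, and 5.92, 6.09 and 6.16 against 5.80, 4.92 and 5.34 after DS. Both lay near the minimum side difference, and the nearest arrays of the sides were 0.10 apart in water for LOC4335390 and 0.12 apart after DS for LOC4335402.

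A run on chromosome 6 between 2.01 and 2.09 Mb held 3 of 9 tested genes, all higher on side B. These were *CNIH1*, the pseudogene LOC9270731 and LOC9272651. LOC9272651 measured 2.96, 1.76 and 3.11 on side A and 5.28, 4.83 and 5.20 on side B in water, and 3.85, 3.05 and 3.66 against 4.02, 4.11 and 4.61 after DS. Its side difference was -2.49 in water and -0.73 after DS, when the nearest arrays lay 0.17 apart. A run on chromosome 11 between 11.92 and 12.44 Mb held 3 of 9 tested genes in both directions, LOC9266258 higher on side A and LOC9267506 and LOC4350354 higher on side B. The long non-coding RNA LOC4350354 measured 1.88, 2.20 and 1.74 on side A and 5.26, 4.04 and 3.98 on side B in water, and 2.31, 1.62 and 1.96 against 4.12, 3.82 and 3.42 after DS.

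On chromosome 8 a run from 5.61 to 6.38 Mb held 5 of 48 tested genes, 3 higher on side A and 2 on side B, with LOC9266434 and LOC4344909 among them. LOC4344871 measured 3.79, 3.51 and 3.68 on side A and 5.79, 6.20 and 6.14 on side B in water, and 4.02, 3.50 and 3.93 against 5.20, 4.91 and 4.65 after DS. In the opposite direction, LOC4344912 measured 4.95, 5.48 and 4.87 against 3.63, 4.12 and 4.34 in water, and 4.70, 5.10 and 4.55 against 4.04, 2.80 and 4.19 after DS. LOC4344943 measured 6.21, 6.35 and 7.06 against 5.91, 5.04 and 6.08 in water, and 6.01, 6.49 and 6.29 against 5.27, 5.31 and 4.16 after DS. Genes of opposite direction thus lay close together: LOC4344909 at 5.99 Mb was lower on side A and LOC4344912 at 6.03 Mb was higher there.

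The last run covered 0.25 to 1.29 Mb of chromosome 4 and held 4 of 42 tested genes, 2 in each direction. LOC4334900 measured 7.62, 7.58 and 7.17 on side A and 6.92, 6.77 and 5.90 on side B in water and 7.50, 7.49 and 7.37 against 6.67, 5.95 and 6.48 after DS. LOC4334972 measured 5.12, 5.04 and 6.24 on side A and 4.40, 4.05 and 3.99 on side B in water, and 4.80, 4.65 and 4.79 against 4.55, 3.65 and 3.91 after DS. Both were higher on side A. LOC4334935 had 2.73, 2.23 and 2.69 against 4.57, 5.46 and 5.32 in water, with 2.92, 2.30 and 3.0 against 3.36, 4.47 and 5.17 after DS. LOC4334939 had 2.85, 2.80 and 2.83 against 4.04, 5.05 and 4.60 in water, with 3.06, 3.26 and 3.13 against 3.76, 4.30 and 4.19 after DS. These last genes were higher on side B, and their side A arrays stayed at or below 3.26.

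Most genes beside the 92 did not share the division. Inside the 5 runs lay 97 other tested genes, of which 6 had sides without overlap in both treatments. That is a larger share than the 0.937% of all genes outside the set, although most of the 97 overlapped. The median side difference of the 97 was 0.17 in size, against 0.12 over all genes. Among the 341 genes that were the nearest or second nearest tested neighbours of a member of the set, 9 had sides without overlap (2.64%), where 141 of all 15047 genes outside the set did (0.937%). In 4 cases 2 of the 92 were direct neighbours in the order of tested genes, among them LOC4335384 with LOC4335383 and with LOC4335390. LOC4352856 and LOC4352857 on chromosome 12 spanned 5.34 kb and were both higher on side B, by 2.75 and 1.57. LOC4350923 and LOC4350924 on chromosome 11 spanned 10.0 kb and were both higher on side B as well, by 0.90 and 1.75.

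The type of gene was read beside the division. Protein-coding genes made up 80.4% of them and 94.6% of all genes, so that 0.517% of protein-coding genes met the rule and 2.20% of the others did. Long non-coding RNAs numbered 10 of 401 tested, pseudogenes 5 of 264, transcribed pseudogenes 1 of 55 and miscellaneous RNAs 2 of 98. A single RefSeq transcript was annotated for 53.3% of the 92 genes and for 69.4% of all genes, and the median gene length was 4620 bases against 3499. These shares have no test.

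DS against control asked whether the divided genes also responded to the treatment. The rule did not use the difference between treatments, but it chose genes that spread within the labelled groups. In WT, 4 of the 92 rose and 2 fell, where 4.93% of all genes rose and 8.47% fell (limma; genes were called at a fold of 2 or more with an adjusted p no higher than 0.05). In H49, 5 rose and 2 fell, against 5.26% and 9.3% of all genes. Taken over both genotypes, 7 rose and 4 fell, against 5.1% and 8.86%. The called share in WT was 6.52% of the 92 and 13.4% of all genes, and in H49 it was 7.61% and 14.6%. In this fit both shares of the 92 lay below those of all genes. When the replicate number within each genotype was fitted as a block, both lay above them. The shares were 16 of 92 (17.39%) against 14% in WT and 21.7% against 15.1% in H49. Over both genotypes they were 18.5% against 14.1%. The difference in shares was not tested in either fit, so its direction rests on the block. Each labelled group held arrays of both sides, so the rule chose genes with a larger standard error. Without the block its median was 0.58 for the 92 genes, against 0.23 over all genes. The block takes out differences between the replicates of a genotype, which the rule selected, so neither share is free of the selection. The median change was -0.16 in WT and -0.27 in H49, and -0.06 over all genes in both.

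The replicate numbers paired the H49 arrays, and with the number as a block the median standard error of the 92 genes was 0.27. In that fit 10 of the 92 rose and 10 fell in H49, against 5.45% and 9.64% of all genes, and all 7 genes called without the block were among the 20. LOC4340119 rose in H49 by 2.59 (SE 0.51, adjusted p = 0.0034 with the block in limma) and LOC4349468 by 1.26 (SE 0.33, adjusted p = 0.014), where the fit without the block gave an adjusted p of 0.2 and 0.28. LOC4324008 fell in H49 by 1.09 (SE 0.19, adjusted p = 0.0016 with the block, 0.46 without it). Every H49_DS array of LOC4340119 was higher than the H49_CT array of the same number, and every H49_DS array of LOC4324008 was lower.

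The largest change was that of LOC9267506, a protein-coding gene on chromosome 11 that rose in both genotypes. It measured 5.58, 3.75 and 4.52 in replicates 1 to 3 of WT_CT and 10.18, 8.81 and 8.34 in WT_DS, and 3.52, 4.67 and 4.74 in H49_CT and 8.52, 10.34 and 10.34 in H49_DS. The rise was 4.49 in WT (SE 0.60, limma adjusted p = 0.00018) and 5.42 in H49 (SE 0.60, adjusted p = 3.8e-05), with no overlap between treatments. Within each treatment side B was still above side A, by 1.07 in water and 1.73 after DS. LOC4324697 on chromosome 1 measured 5.95, 4.92 and 4.52 in WT_CT and 7.69, 7.57 and 7.31 in WT_DS, and 4.85, 5.18 and 5.60 in H49_CT and 7.44, 8.58 and 8.67 in H49_DS. Its levels rose by 2.39 in WT (SE 0.37, limma adjusted p = 0.00057) and in H49 by 3.02 (SE 0.37, limma adjusted p = 9.8e-05). These 2 genes were called in both genotypes whichever array was left out.

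A pair of genes on chromosome 5 rose by less. LOC4339045 measured 4.23, 3.17 and 3.69 in WT_CT and 5.81, 4.80 and 5.29 in WT_DS, and 3.80, 3.89 and 3.94 in H49_CT and 4.65, 6.10 and 6.65 in H49_DS. Its rise was 1.61 in WT (adjusted p = 0.014) and 1.93 in H49 (adjusted p = 0.0047). Without WT_CT replicate 2 or WT_DS replicate 1 the change in WT was 1.34 or 1.35, with limma adjusted p of 0.054 and 0.062. LOC4339237 measured 5.81, 3.84 and 4.82 in WT_CT and 7.33, 5.67 and 6.47 in WT_DS, and 4.83, 4.92 and 5.62 in H49_CT and 6.16, 6.83 and 7.20 in H49_DS. The rise was 1.67 in WT (adjusted p = 0.021) and 1.61 in H49 (adjusted p = 0.024). This call was lost in WT without WT_CT replicate 2, WT_CT replicate 3 or WT_DS replicate 1 (1.18, 1.67 and 1.25) and in H49 without H49_CT replicate 1 or 2 or H49_DS replicate 2 or 3 (1.46, 1.51, 1.56 and 1.38).

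LOC4352482 on chromosome 12 was called in H49 only, which does not show a difference between the genotypes. It measured 5.91, 6.80 and 6.41 in WT_CT and 5.67, 8.55 and 8.31 in WT_DS, and 7.18, 6.18 and 6.0 in H49_CT and 9.09, 7.85 and 8.20 in H49_DS. The change was 1.93 in H49 (SE 0.61, limma adjusted p = 0.032) and 1.14 in WT (SE 0.61, adjusted p = 0.19). WT_DS replicate 1, on side B, was the only DS array below all water arrays, and without it the change in WT was 2.06 (adjusted p = 0.0046). The call in H49 was lost without H49_CT replicate 2 or 3 or H49_DS replicate 1 or 3, with changes of 1.79, 1.70, 1.57 and 2.02.

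The genes that fell were LOC4333208 on chromosome 3 and LOC4350420 on chromosome 11. LOC4333208 measured 4.92, 4.10 and 4.40 in WT_CT and 3.38, 2.99 and 1.93 in WT_DS, and 4.18, 5.39 and 6.43 in H49_CT and 2.61, 3.31 and 3.35 in H49_DS. It fell by 1.71 in WT (SE 0.49, limma adjusted p = 0.02), and in H49 it fell by 2.24 (SE 0.49, limma adjusted p = 0.0042). Without WT_CT replicate 1 or WT_DS replicate 3 the change in WT was -1.49 or -1.29, with adjusted p of 0.073 and 0.08. LOC4350420 measured 8.13, 6.95 and 6.99 in WT_CT and 6.73, 5.50 and 5.65 in WT_DS, and 7.54, 8.03 and 7.85 in H49_CT and 5.37, 6.23 and 6.38 in H49_DS. It fell by 1.39 in WT (SE 0.38, limma adjusted p = 0.017), and in H49 it fell by 1.82 (SE 0.38, limma adjusted p = 0.0034). Without WT_CT replicate 1, WT_DS replicate 2 or WT_DS replicate 3 its change in WT was -1.01, -1.16 or -1.24 and was not called.

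**Figure D5:**
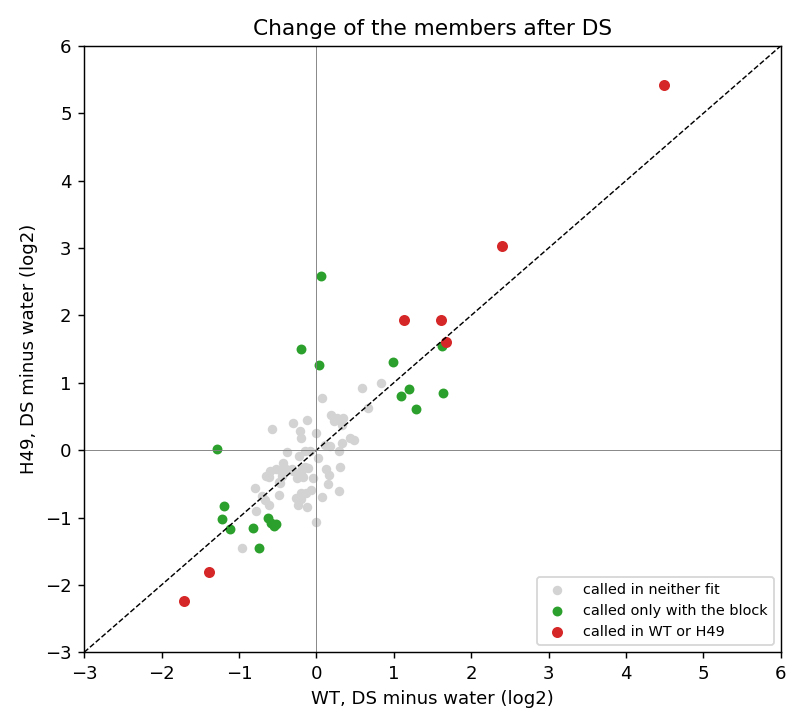
Change after DS (DS minus water, log2) of the 92 genes in WT (x axis) and in H49 (y axis), with genes called in WT or H49 in red, genes called in a genotype only with the replicate number within genotype as a block in green, the rest in grey, and the dashed line where the changes are equal. The 7 red genes run from LOC4333208 at -1.71 and -2.24 to LOC9267506 at 4.49 and 5.42, and 19 genes are green.

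Over both genotypes the fit also called *CNIH1*, which rose by 1.24 (SE 0.45, limma adjusted p = 0.039), and LOC9266239, which rose by 1.06 (SE 0.31, adjusted p = 0.013). LOC4327373 fell by 1.14 (SE 0.32, adjusted p = 0.012), and the long non-coding RNA LOC4336115 fell by 1.12 (SE 0.31, adjusted p = 0.011). *NAC067* was not called, with a change of 0.10 (SE 0.35, adjusted p = 0.84) over both genotypes. The change had the same sign in WT and H49 in 76 of the 92 genes, and 6 of the 7 genes called in either genotype were called in both. Signs were not counted over all genes, so the 76 cannot be read as a trait of the set. Read by side, the mean change had a median of -0.40 on the side where a gene was high and of 0.03 where it was low. On the high side 59 of the 92 genes were lower after DS, and on the low side 41 were. In 55 of the 92 genes all 6 arrays of the low side were at or below the median level of all genes on the array. Whether low levels left less room for a fall was not tested.

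The interaction of genotype and treatment called 0 of the 92 genes, and 0% of all genes. At an unadjusted p under 0.05, limma passed 0 of the 92 and 360 of all 15140 genes without the block, and LOC4340119, LOC4349468, LOC4352450 and LOC9267506 of the 92 and 483 of all genes with it. The median standard error of the interaction for the 92 genes was 0.82 without the block. A call needs a difference well above 1 standard error, so differences larger than this could also be missed. That of LOC4340119 was 2.53 (SE 1.98) without the block and was not called.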

How the data were processed

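Transcript levels of seedlings were measured on 12 Affymetrix rice arrays, 3 for each of 4 groups taken from the sample labels. RMA normalization was done by the authors, who deposited log2 values for every probe set, and these were taken as they stood. The labels name a 3' IVT PLUS kit and the methods a WT PLUS kit. Of 54922 probe sets, 15829 carried 1 gene in the platform's table of gene symbols, 440 carried several and 38653 were outside it. Where a gene had more than 1 probe set (627 of 15140 genes), the one with the highest mean stood for it. All 15140 gene IDs matched the reference gene table of assembly ASM3414082v1, which gives positions and types of genes but no descriptions, so families of genes could not be counted.

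The tests of DS used limma (version 3.58.1, R 4.3.3) on all 12 arrays with a mean for each group, and Benjamini-Hochberg adjustment covered all 15140 genes. Calls needed a fold of 2 or more together with an adjusted p no higher than 0.05. For the interaction no fold was required. Python 3.11.15 with pandas 2.3.3, numpy 2.4.6 and matplotlib 3.10.9 made the tables and plots. The 3 arrays per group limit the precision.

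The division of the arrays, its genes, the marker lists and the tests were chosen with earlier results of these data known. Values in every array were given for the 10 genes with the largest side difference in each direction, genes in runs of 3 or more, and the genes with the largest changes after DS among those called in WT or H49. *NAC067* was added for its name.

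To check whether replicate numbers pair arrays, deviations from the group means were correlated across genes between the water and the DS array of a number. The correlation was 0.244, 0.256 and 0.301 for replicates 1 to 3 of H49 and 0.085, 0.268 and 0.269 for those of WT, and each array correlated best with its own number. Every H49 pair was above 0.1 and 1 WT pair was not, so the block is given beside the H49 result. A block was a replicate number within a genotype, so WT replicate 1 and H49 replicate 1 were separate blocks. Without the 92 genes the correlation was 0.159 for H49 replicate 1 and 0.0074 for WT replicate 1. Alternatives covered scaling, dim genes, the probe set of a gene, the fold and side minimum, the test, the block and leaving out each array. Windows of 5 Mb, neighbouring genes, the rule on labelled genotypes, and spread and DS change by side were added after the data were seen.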

Additional observations from a re-analysis of the deposited data

Results flagged for a closer look

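Probe sets outside the table of gene names carried the same division. Applied to these 38653 probe sets, which no comparison above used, the rule took 190 (0.492%), of which 91 were higher on side A and 99 on side B. They stand out as a signal in values that were not part of the gene counts, and they are not named here. Of the 440 probe sets shared by several genes, 8 met the rule.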

How the results depend on the processing

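With the replicate number within genotype as a block, the members called after DS numbered 16 in WT, 20 in H49 and 17 over both genotypes, in place of 6, 7 and 11. These were 17.39%, 21.7% and 18.5% of the members, against 14%, 15.1% and 14.1% of all genes in the same fit, whereas without the block the shares of the members were below those of all genes, at 6.52% against 13.4% in WT and 7.61% against 14.6% in H49. The selection rule shaped the shares of the members in both fits. All calls of the fit without the block were kept with it. The methods name Student's t-test under general statistics and refer to an earlier study for the array comparison. That t-test with Benjamini-Hochberg adjustment called 0 members in WT and 3 in H49 (LOC9267506, LOC4324697 and LOC4350420), and 5 and 7 at its unadjusted threshold. Leaving out 1 array at a time gave 5 to 9 calls in WT, 5 to 9 in H49, 8 to 16 over both genotypes and 93 to 111 members, of which 84 to 90 were among the 92. The interaction called 0 under every alternative run, the block included. A side minimum of 0.5 took 157 genes, and restricting the table to genes above its median level left 36. With a joining gap of 250 kb, 10 members lay in 3 runs of 3 or more, and with 1000 kb, 35 lay in 7. Centred arrays gave 94 members and quantile normalization 91, with 88 shared in each case. For the genes named after DS, 149 of 168 values with 1 array left out kept their call, 18 lost it and 1 gained it, and of 94 values under other settings 83 kept it, 10 lost it and 1 gained it. The block's effect on WT rests on numbers that were not shown to pair the WT arrays. No value changed direction. The deposited values carry no measure of background, so levels near it could not be marked.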
